A study of Mus musculus with 12 samples.

Results

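The genes described here are 10 genes of the hepatocytes that surround the central vein, which depend on Wnt and beta-catenin signalling: Glul, Slc1a2, Oat, Rhbg, Lgr5, Axin2, Tbx3, Rnf43, Lect2 and Gulo. They were taken by symbol from a table of 13554 genes measured in 12 mouse liver libraries. All 10 are in the table, and all 10 were among the 12570 genes tested. All libraries are from livers of male, wild-type (WT) mice of the C57Bl/6J strain, taken at postoperative day 3 of a partial hepatectomy, an operation that cuts away part of the organ. There were 4 groups of 3 libraries: resection of 70% (PH70), resection of 80% (PH80), resection of 80% in an arm named HC (PH80_HC), and resection of 80% with G-CSF and HNF4a (PH80_G+H). G-CSF is a growth factor of granulocytes and HNF4a is a transcription factor of hepatocytes. The sources used here do not give the age of the mice, what HC stands for, or how G-CSF and HNF4a were dosed and timed, and no group holds unresected liver. Whether libraries of 1 group stem from different animals is not stated in the labels, so the spread behind each p-value may be technical.

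Endothelial cells of the central vein release Wnt ligands and R-spondin 3. The hepatocytes next to them respond through Frizzled and LGR receptors, beta-catenin then enters the nucleus, and with TCF factors it switches on a pericentral programme. Part of that programme handles nitrogen: Glul makes glutamine from glutamate and ammonia, Slc1a2 imports glutamate, Rhbg carries ammonium across the membrane and Oat turns ornithine into a precursor of glutamate. Another part acts on the pathway itself. Axin2 is a scaffold of the complex that degrades beta-catenin, Rnf43 removes Frizzled receptors from the surface, and Lgr5 is a receptor of R-spondins. Tbx3 is a transcription factor, Lect2 is a secreted protein of the liver, and Gulo carries out the final step of vitamin C synthesis in mice.

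The upstream sequences that hold a TCF/LEF motif are shown first. The genes were not chosen by motif matches. They were chosen as targets of beta-catenin, which acts with TCF factors, so a match is not independent of the choice. RefSeq entries on GRCm38.p6 matched 6 of the 10 genes (Glul, Slc1a2, Oat, Axin2, Rnf43 and Lect2) with 7 start sites, 2 of them for Rnf43. The 250 bases before each start were searched on both strands for CTTTGA, the core of TCF/LEF sites, for its longer form CTTTGAT, which contains the core, and for CAAAGTCCA, a consensus of HNF4A. The core was found for 2 of the 6 genes, Slc1a2 and Lect2, and both also held the longer form. The HNF4A consensus was found for 0 of the 6. Over 32851 mouse promoters of the same length, 13.8% held the core, 3.21% the longer form and 0.384% the HNF4A consensus. In Slc1a2 (chr2:102706188-102706437, plus strand) the core begins 77 and 206 bases before the start. This RefSeq start lies downstream of the 5′ end of the longest gene model, so other starts of Slc1a2 were not searched. In Lect2 (chr13:56548539-56548788, minus strand) it begins 31 bases before the start. Capitals mark the core, or the longer form where that is present, on either strand, and each sequence runs 5′ to 3′ toward the start.
Slc1a2: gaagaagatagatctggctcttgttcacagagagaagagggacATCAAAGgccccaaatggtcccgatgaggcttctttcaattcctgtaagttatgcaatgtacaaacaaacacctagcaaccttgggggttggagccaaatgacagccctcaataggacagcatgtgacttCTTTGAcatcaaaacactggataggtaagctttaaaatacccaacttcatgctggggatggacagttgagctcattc
Lect2: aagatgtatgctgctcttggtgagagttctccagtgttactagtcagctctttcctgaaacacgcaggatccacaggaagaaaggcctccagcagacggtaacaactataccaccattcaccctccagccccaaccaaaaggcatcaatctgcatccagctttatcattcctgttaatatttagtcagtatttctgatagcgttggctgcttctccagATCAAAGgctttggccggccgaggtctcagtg
A match is a description of the letters and says nothing of binding in these livers.

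The libraries held between 9.72 and 44.5 M reads. Values are normalised reads, which are reads divided by 1 size factor per library, and ± gives the SD of the 3 libraries of a group, with SE named where it is used. Differences were tested with limma on log2(value + 1), two-sided, and p-values were adjusted by Benjamini-Hochberg over all 12570 genes, with a threshold of 0.05. Folds are taken on that scale, which shrinks them for genes of low level. None of the 8 hepatocyte markers was at 0 in any library. Their summed level was 3.70 to 4.02 M in PH70, 2.76 to 3.05 M in PH80, 3.50 to 5.64 M in PH80_HC and 3.16 to 3.84 M in PH80_G+H. Of the markers of other tissues, 0 of 3 muscle genes and 1 of 4 pancreas genes are in the table. Libraries also differed in their slope of expression on transcript length, in log2 per doubling of length. It ranged from -0.00456 to 0.228 in PH70, -0.191 to -0.00202 in PH80, -0.285 to 0.0416 in PH80_HC and -0.0677 to 0.238 in PH80_G+H. In bulk tissue, fewer cells of a type and less RNA per cell cannot be told apart.

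The 10 genes spanned a wide range of levels. Per kilobase of exon in PH70, Oat stood at 6901 ± 1310.1 normalised reads, Lect2 at 4524 ± 1495, Glul at 4414 ± 944 and Gulo at 4382 ± 568. Each of these 4 overlapped its neighbour in that order. The next 4, Rhbg (156 ± 30.7), Slc1a2 (131 ± 27.1), Rnf43 (90 ± 26.8) and Tbx3 (75.3 ± 6.96), were far below Gulo and also overlapped their neighbours. Axin2 (33.7 ± 7.17) and Lgr5 (9.81 ± 2.52) were the lowest, and neither overlapped the gene above it. Reads were fewest for Lgr5, with 46 to 232 reads per library, and Axin2, with 49 to 425, whereas Oat had 4064 to 49832.

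The larger resection was compared with the smaller one first. In PH80 the mean was lower than in PH70 for 9 of the 10 genes, Lect2 being the exception, and 2 of them, Glul and Slc1a2, fell beyond the threshold. No gene of the 10 rose. Over all genes tested, 2.73% were called lower and 1.09% higher in this comparison. Each PH80 library lay below each PH70 library for 6 of the 10 genes (Glul, Slc1a2, Oat, Axin2, Tbx3 and Gulo), against 14.2% of all genes. The median log2 difference of the 10 was -0.68, and that of all genes tested was 0.01. At an unadjusted p under 0.05, limma gave 7 of the 10, of which Lect2 was the higher one, against 2693 of the 12570 genes tested. The length slope moved with this comparison, with the 2 groups overlapping only slightly. The mean level of 76 ribosomal protein genes, as a log2 deviation from their mean over all libraries, did not overlap, at -1.13 to 0.03 in PH70 and 0.09 to 0.52 in PH80, against 0.01 to 1.18 in PH80_HC and -0.88 to 0.19 in PH80_G+H. The part of these library differences in the group differences was not tested beyond the alternatives given below for each gene. With each library scaled to the same total, which moved the median of all genes to 0.13, Lgr5 turned to a higher mean (0.09), 1 gene of the 10 passed (Slc1a2), and 53.6% of all called genes were higher in place of 28.5%.

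**Figure D1:**
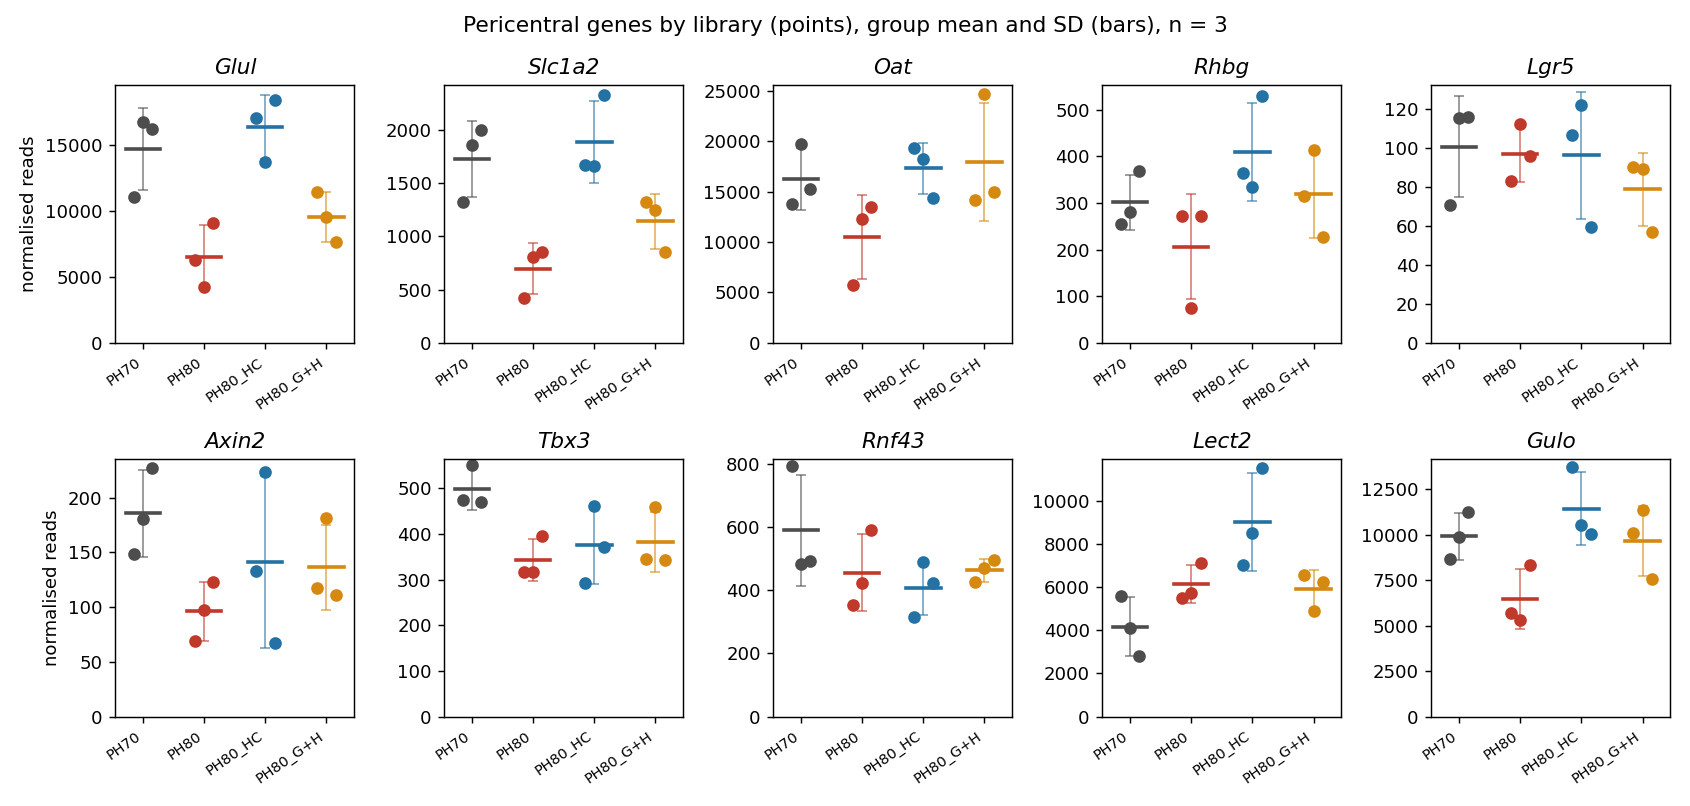
Normalised reads of the 10 genes (vertical axes, from 0) in the 4 groups (horizontal axes), with 1 point per library and bars for the group mean and SD (n = 3). Glul and Slc1a2 are lower in the 3 PH80 libraries than in the 3 PH70 and the 3 PH80_HC libraries, while the points of Lgr5 overlap in all groups.

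Glul and Slc1a2, the glutamine-producing enzyme and the glutamate importer, were the genes of the 10 that passed the test. Glul (chromosome 1, 153899944 to 153909723, plus strand, GRCm38) stood at 11062, 16753 and 16187 normalised reads in PH70 replicates 1 to 3 and at 6240.1, 4236 and 9049.6 in PH80. It stood at 16988, 13704 and 18418 in PH80_HC and at 11422, 9511 and 7639.9 in PH80_G+H. The PH80 values were all below those of PH70 and of PH80_HC, while PH80_G+H lay between them and overlapped both PH80 and PH70. Glul fell 2.32-fold from PH70 (14667 ± 3135) to PH80 (6509 ± 2418), a log2 difference of -1.22 (SE 0.28, adjusted p = 0.0338). From PH80 to PH80_HC (16370.0 ± 2417) it rose 2.62-fold, by 1.39 (SE 0.28, adjusted p = 0.0377) on the log2 scale.

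Slc1a2 (chromosome 2, 102658659 to 102790784, plus strand), whose upstream sequence with the 2 core motifs is given above, had the same order of groups. Its values were 1324, 1857 and 1998 in PH70, 421, 809.7 and 858 in PH80, 1675, 1659 and 2329.8 in PH80_HC and 1328, 1247 and 851 in PH80_G+H. The 3 PH80 libraries again lay below every PH70 and PH80_HC library, and PH80_G+H replicate 3 fell within the PH80 range. Slc1a2 fell 2.56-fold in PH80 against PH70, a log2 difference of -1.36 (SE 0.28, adjusted p = 0.0204), and was 2.81-fold higher in PH80_HC than in PH80, a log2 difference of 1.49 (SE 0.28, adjusted p = 0.0291). In the moderated F test over the 4 groups, which called 1.85% of all genes, Slc1a2 was the gene of the 10 that passed (adjusted p = 0.0367), and Glul missed the threshold (adjusted p = 0.0523).

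These calls lie close to the threshold. Glul in PH80 against PH70 lost its call without PH70 replicate 2 (adjusted p = 0.154), PH70 replicate 3 (0.0951), PH80 replicate 1 (0.102) or PH80 replicate 2 (0.117), and also with each library scaled to the same total (0.052), with only the 2 groups in the fit (0.0534), with the replicate number as a block (0.0572) and with the library of steepest length trend of each group left out (0.145), with a log2 difference between -1.49 and -0.94 over 24 alternatives. Slc1a2 lost it without PH70 replicate 2 (adjusted p = 0.101), PH70 replicate 3 (0.0652) or PH80 replicate 1 (0.0737), with the length and GC trend removed (0.0577) and with the steepest libraries left out (0.0801), with a log2 difference between -1.54 and -0.91. In PH80_HC against PH80 both lost their calls without PH70 replicate 2, PH80 replicate 1 or any of the 3 PH80_HC libraries, with adjusted p from 0.0513 to 0.113. Glul also lost that call without PH80 replicate 2 (adjusted p = 0.0891), PH80_G+H replicate 1 (0.0508) or PH80_G+H replicate 3 (0.0557), with edgeR (0.0516) and with the replicate block (0.0683). Both lost it with limma without an intensity trend (adjusted p = 0.0566 for Glul and 0.0529 for Slc1a2), with the same total in every library (0.0818 and 0.0761), with only the 2 groups in the fit (0.136 and 0.11) and with the steepest libraries left out (0.181 and 0.117). Over the alternatives the log2 difference in PH80_HC against PH80 stayed between 1.06 and 1.66 for Glul and reached at most 1.67 for Slc1a2, which was lowest with the steepest libraries left out.

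The summed hepatocyte markers were themselves lower in every PH80 library than in every PH70 library, so both genes were also set against them. Per M normalised reads of the 8 hepatocyte markers, Glul stood at 2988 to 4170.1 in PH70, 1434 to 2966 in PH80, 3012 to 4088 in PH80_HC and 2415 to 3059.7 in PH80_G+H. Each PH80 library remained below each PH70 and PH80_HC library on this scale. For Slc1a2 the values were 358 to 509, 152 to 281, 297 to 517 and 269 to 356 in the same order, and PH80 again did not overlap PH70 or PH80_HC. How many of all genes separate on this scale was not computed. The scale rests on a plain sum, in which abundant markers count most. Alb, the transcript of albumin, had a mean of 2.211e+06 normalised reads over all libraries. The group means of the sum were 3.882 M in PH70, 2.922 M in PH80, 4.549 M in PH80_HC and 3.579 M in PH80_G+H. The ratio to each marker alone was not tested. Immune cell markers varied between libraries as well. The summed level of the 7 neutrophil markers, with Ly6g at 0 in some libraries, ranged from 145 to 508 in PH70, 307 to 5938 in PH80, 592 to 2146 in PH80_HC and 362 to 2385 in PH80_G+H. That of the 7 Kupffer cell and macrophage markers, none of them at 0, ranged from 6086 to 7745 in PH70, 7087 to 18249 in PH80, 13284 to 20239 in PH80_HC and 7152 to 10549 in PH80_G+H. The part of these cells in the Glul and Slc1a2 differences was not tested.

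The scale of the hepatocyte markers gave another order of groups for some of the other genes. Per M normalised reads of these markers, Lect2 stood at 717 to 1502 in PH70 and 1937 to 2337 in PH80, and Lgr5 at 19.1 to 29.5 and 30.1 to 38. Every PH80 library was thus above every PH70 library for both genes. Dividing by a sum that was lower in every PH80 library places a gene of equal normalised reads higher in PH80. The share of all genes that separate on this scale was not computed. Oat stood at 3731 to 4917 in PH70 and 2070.3 to 4421 in PH80, Gulo at 2339.7 to 2859.8 and 1805 to 2734, Tbx3 at 119.8 to 137 and 108 to 129.7, and Axin2 at 40.22 to 57.91 and 24.96 to 40.29. For these 4 genes the groups overlapped, although they did not overlap in normalised reads. Rhbg (68.7 to 93.7 in PH70 and 25.6 to 98.3 in PH80) and Rnf43 (121 to 214 and 128 to 194) overlapped on both scales. No test was run on this ratio.

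The other nitrogen genes, Oat and Rhbg, had lower means in PH80 than in PH70 and higher ones in PH80_HC than in PH80, without passing the test. Oat (chromosome 7, 132557478 to 132576398, minus strand), the mitochondrial enzyme that uses up ornithine, stood at 13813, 19753 and 15295 in PH70, 5716, 12321 and 13488 in PH80, 19292, 18222 and 14399 in PH80_HC and 14189, 24652 and 14924 in PH80_G+H. All PH80 values lay below all values of the other groups, but PH80 replicate 1 was much lower than the rest of its group, and the highest value of all was PH80_G+H replicate 2. Oat differed by -0.71 (SE 0.33, adjusted p = 0.23) in PH80 against PH70, which became -0.32 without PH80 replicate 1, and by 0.80 (SE 0.33, adjusted p = 0.279) in PH80_HC against PH80. Rhbg (chromosome 3, 88242874 to 88254709, minus strand), the ammonium carrier, stood at 254, 282 and 368 in PH70, 271, 75.5 and 272 in PH80, 364, 334 and 531 in PH80_HC and 315, 414 and 228 in PH80_G+H. One library, PH80 replicate 2, was far below the others, and replicates 1 and 3 of PH80 overlapped PH70. Rhbg differed by -0.74 (SE 0.41, adjusted p = 0.311) in PH80 against PH70 and by 1.17 (SE 0.41, adjusted p = 0.204) in PH80_HC against PH80, where the libraries did not overlap.

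The genes that act on the Wnt pathway itself, Axin2, Lgr5 and Rnf43, did not pass the limma test in any of the 6 comparisons. Axin2 (chromosome 11, 108920349 to 108950783, plus strand), a widely used readout of beta-catenin activity, stood at 149, 181 and 227 in PH70, 68.9, 97.2 and 123 in PH80, 133, 224 and 67.5 in PH80_HC and 118, 181 and 111 in PH80_G+H. PH80 lay below PH70 without overlap, while PH80_HC held both the lowest value of all and 1 of the 2 highest. Axin2 differed by -0.96 (SE 0.37, adjusted p = 0.167) in PH80 against PH70 and by 0.42 (SE 0.37, adjusted p = 0.674) in PH80_HC against PH80. Lgr5 (chromosome 10, 115450311 to 115587780, minus strand), the R-spondin receptor, stood at 70.8, 115 and 116 in PH70, 83, 112 and 95.8 in PH80, 107, 122 and 59.7 in PH80_HC and 90.1, 89 and 57.1 in PH80_G+H. The 4 groups overlapped throughout. The log2 difference of Lgr5 was -0.03 (SE 0.31, adjusted p = 0.971) in PH80 against PH70.

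Rnf43 (chromosome 11, 87662722 to 87735539, plus strand), which limits Wnt signalling by removing Frizzled receptors, stood at 793, 484 and 493 in PH70 and 354, 422 and 591 in PH80. It stood at 316, 488 and 423 in PH80_HC and 425, 469 and 496 in PH80_G+H. PH70 replicate 1 was the highest library and PH80 overlapped every other group. The log2 difference of Rnf43 was -0.37 (SE 0.24, adjusted p = 0.403) in PH80 against PH70 and -0.15 (SE 0.24, adjusted p = 0.856) in PH80_HC against PH80. Tbx3 (chromosome 5, 119670669 to 119684724, plus strand), a transcription factor and a target of beta-catenin in liver, stood at 474, 552 and 471 in PH70, 316, 318 and 396 in PH80, 293, 462 and 371 in PH80_HC and 346, 459 and 344 in PH80_G+H. The 3 PH70 libraries were above every library of the other groups, and the share of all genes for which this holds was not computed. The log2 difference of Tbx3 was -0.54 (SE 0.20, adjusted p = 0.148) in PH80 against PH70, -0.43 (SE 0.20, adjusted p = 0.318) in PH80_HC against PH70 and -0.39 (SE 0.20, adjusted p = 0.869) in PH80_G+H against PH70, and none passed the test. These 3 comparisons share the PH70 libraries.

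Lect2 (chromosome 13, 56542464 to 56548502, minus strand), the secreted protein whose upstream sequence carries the longer motif, was the gene of the 10 with a higher mean in PH80 than in PH70. Its values were 5561, 4098 and 2814 in PH70, 5505, 5720.3 and 7129.9 in PH80, 7012, 8500.0 and 11504 in PH80_HC and 6573, 4898 and 6213 in PH80_G+H. PH70 spanned a wide range with replicate 3 lowest, PH80_HC replicate 3 was the highest library, and PH80 replicate 1 lay below PH70 replicate 1. Lect2 differed by 0.60 (SE 0.26, adjusted p = 0.205) in PH80 against PH70 and by 1.14 (SE 0.26, adjusted p = 0.105) in PH80_HC against PH70, where the libraries did not overlap. The share of all genes without overlap was not computed for PH80_HC against PH70. Against PH80, Lect2 in PH80_HC differed by 0.54 (SE 0.26, adjusted p = 0.377). DESeq2, run on the reads recovered from the values, called the difference from PH70 (adjusted p = 0.00613), and limma did not.

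Gulo (chromosome 14, 65986786 to 66009207, minus strand), the final enzyme of vitamin C synthesis, stood at 8662, 9853 and 11232 in PH70, 5692, 5331 and 8342 in PH80, 13730.5, 10528 and 10055 in PH80_HC and 10083, 11329.6 and 7538 in PH80_G+H. The PH80 libraries lay below those of PH70 and PH80_HC, and PH80 replicate 3 reached into the range of PH80_G+H. The log2 difference of Gulo was -0.64 (SE 0.24, adjusted p = 0.148) in PH80 against PH70 and 0.84 (SE 0.24, adjusted p = 0.115) in PH80_HC against PH80. DESeq2 called the latter (adjusted p = 0.0194), edgeR did not (adjusted p = 0.146).

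Levels of several of the genes moved with the transcript-length slope of the libraries. Over the 12 libraries, which share their preparation and depth between genes, Pearson r between log2 level and slope was 0.863 for Axin2, 0.626 for Tbx3, 0.581 for Oat and 0.486 for Lgr5. It was -0.738 for Lect2, which has the shortest transcript of the 10 at 837 bases. It was 0.0574 for Glul, -0.0367 for Rhbg, 0.209 for Slc1a2, which has the longest transcript at 11595 bases, 0.309 for Gulo and 0.344 for Rnf43. With the length and GC trend removed from each library, Slc1a2 in PH80 against PH70 moved from -1.36 to -1.03 and lost its call (limma, adjusted p = 0.0577), and Glul stood at -1.26 (adjusted p = 0.0201). Axin2 then differed by -0.91 (limma, adjusted p = 0.148) and Lect2 by 0.27 (adjusted p = 0.431). With the library of steepest slope of each group left out, which are PH70 replicate 3, PH80 replicate 1, PH80_HC replicate 3 and PH80_G+H replicate 2, Axin2 and Lect2 became -0.58 (adjusted p = 0.33) and 0.42 (adjusted p = 0.393). Under the same omission Glul differed by -1.14 (adjusted p = 0.145) and Slc1a2 by -0.91 (adjusted p = 0.0801), so that 0 of the 10 genes passed.

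**Figure D2:**
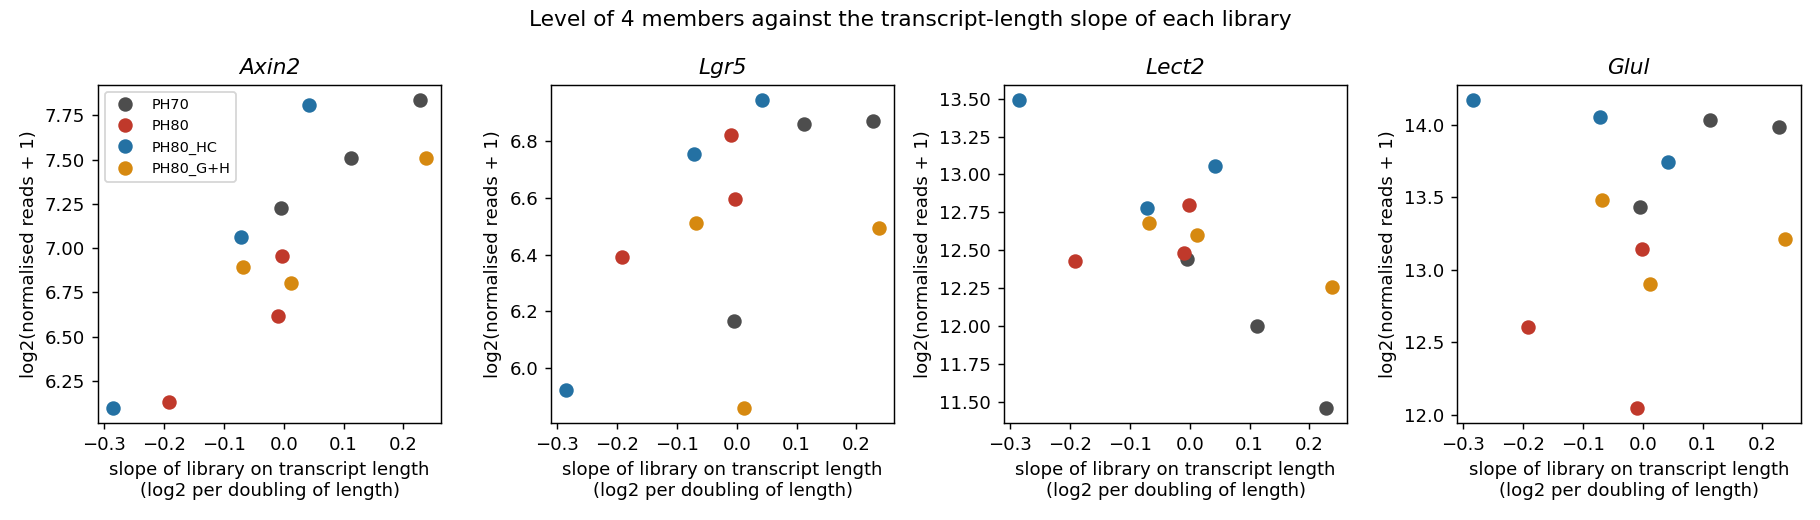
Level of Axin2, Lgr5, Lect2 and Glul (vertical axes, log2 of normalised reads + 1) against the transcript-length slope of each library (horizontal axes, log2 per doubling of length), 1 point per library, coloured by group. Axin2 climbs with the slope (r = 0.863) and Lect2 descends (r = -0.738), and the points of Glul show little relation to it (r = 0.0574).

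The HC arm was compared with PH80 to see which of the genes differed after the same resection. Of the 10 genes, 2 rose in PH80_HC, Glul and Slc1a2, and none fell, while 0.652% of all genes were called higher and 0.239% lower. Each PH80_HC library lay above each PH80 library for 5 of the 10 (Glul, Slc1a2, Oat, Rhbg and Gulo), against 8.26% of all genes. The median log2 difference of the 10 was 0.67, with 0.01 for all genes. The means of Lgr5 and Rnf43 were lower in PH80_HC than in PH80 by less than their SE (log2 differences -0.06 and -0.15). With each library scaled to the same total, which moved the median of all genes to -0.31, 0 of the 10 passed, Tbx3 turned to a lower mean (-0.22), and 23.6% of all called genes were higher in place of 73.2%. This comparison shares the PH80 libraries with that of PH80 against PH70, so values of PH80 enter both.

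With G-CSF and HNF4a, limma, edgeR and DESeq2 called 0 of the 10 genes against PH80, and 3 had an unadjusted p under 0.05 in limma (Slc1a2, Oat and Gulo), against 1316 of all 12570 genes. After adjustment, 0.119% of all genes were called in either direction. Oat was the gene of the 10 whose PH80_G+H libraries all lay above the PH80 libraries, against 8.82% of all genes. The mean was higher in PH80_G+H for 8 of the 10, with a median log2 difference of 0.55 (0.00 for all genes), and scaling to the same total turned that of Rnf43 to -0.04. Slc1a2 differed by 0.76 (SE 0.28, adjusted p = 0.341), Glul by 0.60 (SE 0.28, adjusted p = 0.485) and Rhbg by 0.80 (SE 0.41, adjusted p = 0.524).

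Both arms were also set against each other and against PH70. Between PH80_HC and PH80_G+H, limma, edgeR and DESeq2 called 0 of the 10 genes (3 at an unadjusted p under 0.05 in limma, against 1710 of all genes), with 0.255% of all genes called by limma. Glul differed by 0.79 (SE 0.28, adjusted p = 0.266), Slc1a2 by 0.73 (SE 0.28, adjusted p = 0.284) and Lect2 by 0.59 (SE 0.26, adjusted p = 0.343). The libraries of the arms did not overlap for these 3 of the 10. The share of all genes without overlap was not computed for the comparisons of this paragraph. Against PH70, limma and edgeR called 0 of the 10 in PH80_HC, where DESeq2 called Lect2, and 0.231% of all genes were called by limma. Glul and Slc1a2 in PH80_HC differed from PH70 by 0.17 (SE 0.28, adjusted p = 0.785) and 0.13 (SE 0.28, adjusted p = 0.839), with overlapping libraries, and by -0.04 and -0.08 with each library scaled to the same total. In PH80_G+H against PH70, the 3 tools called 0 of the 10 and limma called 0.00796% of all genes. Each of these comparisons had 1 gene of the 10 at an unadjusted p under 0.05 in limma, Lect2 in the former and Glul in the latter, against 1984 and 750 of all genes.

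**Figure D3:**
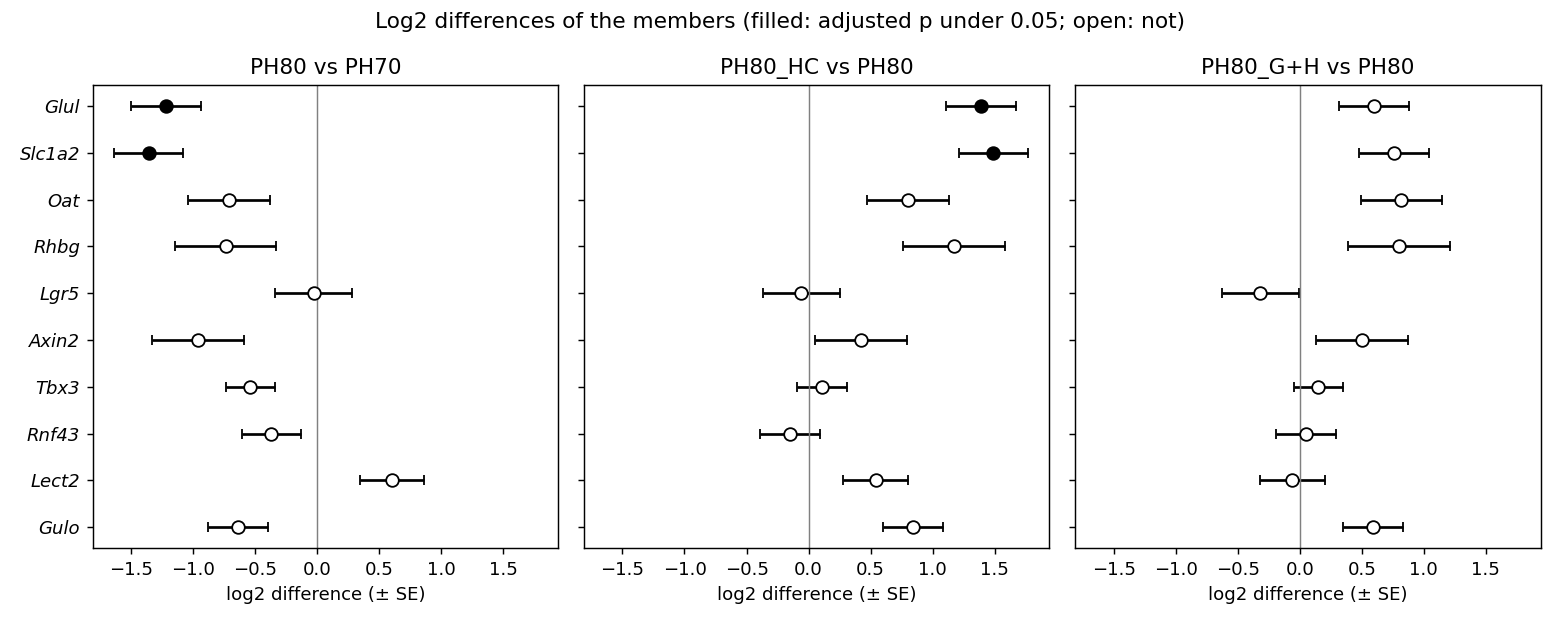
Log2 difference of each of the 10 genes (horizontal axes, bars are SE) in PH80 against PH70, PH80_HC against PH80 and PH80_G+H against PH80, with filled points for an adjusted p under 0.05 (limma, n = 3 per group). Glul and Slc1a2 are filled to the left in the first panel (-1.22 and -1.36) and to the right in the second (1.39 and 1.49), and the third panel has no filled point.

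The rest of the Wnt pathway was read from lists that leave out the 10 genes. These lists and those below, like the 10 genes, were chosen with earlier results of these data known, so their counts are a description. In 6 lists of ligands, receptors, antagonists, the beta-catenin complex, nuclear partners and further targets, 61 genes were tested, some of them on more than 1 list, with a median log2 difference of -0.13 in PH80 against PH70. Of these, 1 of 12 receptors fell and 1 of 13 further targets rose, and 0 of 9 ligands, 0 of 8 antagonists, 0 of 13 genes of the beta-catenin complex and 0 of 10 nuclear partners passed, next to 2 calls by edgeR, 4 by DESeq2 and 11 genes at an unadjusted p under 0.05. The one that fell was Lgr4, an R-spondin receptor related to Lgr5, at 944 ± 116 in PH70 and 458 ± 98.4 in PH80 (log2 -1.06, adjusted p = 0.024). Its call was lost in 6 of 24 alternatives, among them the omission of any PH70 library or of PH80 replicate 1 or 2 (adjusted p up to 0.126). The one that rose was Prom1, also a marker of bile duct and progenitor cells, at 21 ± 13 in PH70 and 326 ± 105 in PH80 (log2 3.99, adjusted p = 0.00716). Against PH80, limma called 0 of the 61 in either arm. The unadjusted p was under 0.05 for 4 of them in PH80_HC (edgeR called 0 and DESeq2 called 1) and for 8 in PH80_G+H (edgeR and DESeq2 called 0). Over all 12570 genes tested, limma gave 2693 at an unadjusted p under 0.05 in PH80 against PH70. It gave 1792 in PH80_HC and 1316 in PH80_G+H, each against PH80. Over all genes, edgeR called 368, 116 and 11 in these comparisons, in the same order, and DESeq2 called 950, 503 and 203. These counts over all genes are also the background for the unadjusted, edgeR and DESeq2 counts of the lists, here and below.

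No ligand passed the test in PH80 against PH70 or in either arm against PH80 (limma, edgeR and DESeq2 called 0 of 9, and limma gave 0, 0 and 1 at an unadjusted p under 0.05). Rspo3, the R-spondin of central vein endothelium, stood at 151 ± 27.2 in PH70, 162 ± 10.4 in PH80, 159.6 ± 8.91 in PH80_HC and 159.8 ± 20 in PH80_G+H. Wnt2 stood at 132 ± 8.91, 117 ± 20.8, 175 ± 73.4 and 178 ± 9.24 in that order, and Wnt9b at 58.8 ± 16.7, 60.3 ± 9.98, 56.8 ± 10.5 and 84.5 ± 17.8. The PH80_G+H libraries of Wnt2 lay above every PH80 library, with an adjusted p of 0.421 (limma). The summed level of 8 markers of central vein endothelium, these 3 ligands among them and none at 0, ranged from 1159.6 to 1351 in PH70, 1516 to 2083 in PH80, 1164 to 1908 in PH80_HC and 1577 to 1864 in PH80_G+H, and the part of these cells in the Glul and Slc1a2 differences was not tested. Between PH70 and PH80 the mean of each of the 3 ligands differed by less than the larger of its SDs. The other markers of that sum were not read singly. Rspo3 in PH80 against PH70 differed by 0.12 (adjusted p = 0.752). The means of Znrf3, the partner of Rnf43 in removing Frizzled receptors, and Ctnnb1, the gene of beta-catenin, were lower in PH80, with log2 differences of -0.64 (adjusted p = 0.241) and -0.36 (adjusted p = 0.353), and neither was called. Tcf7l2, the main TCF partner of beta-catenin in liver, differed by 0.27 (adjusted p = 0.558). The 13 further targets were split, with 7 lower and 6 higher means in PH80 against PH70 (median -0.08) and again in PH80_HC against PH80 (median -0.04). Of those not called, Ccnd1, a cyclin of the cell cycle, differed by 0.89 (adjusted p = 0.0781) in PH80 against PH70, and Tnfrsf19 by -1.13 (adjusted p = 0.116) there and by 1.30 (adjusted p = 0.126) in PH80_HC against PH80.

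A further list holds other pericentral hepatocyte genes, and their dependence on Wnt signalling was not tested. Of 20 other pericentral genes, 5 fell and 0 rose in PH80, with a median of -0.89. The 5 that fell were Cyp2e1, a cytochrome that oxidises ethanol (log2 -2.05, adjusted p = 0.00761), Cyp2a5 (log2 -1.32, adjusted p = 0.0104), Cyp2c37 (log2 -2.39, adjusted p = 0.0158), Cyp1a2 (log2 -1.51, adjusted p = 0.0366) and Cyp8b1, an enzyme of bile acid synthesis (log2 -4.37, adjusted p = 0.0159). The call of Cyp1a2 was lost in 12 of 24 alternatives, including edgeR (adjusted p = 0.0629) and the omission of any PH70 library, of PH80 replicate 1 or 2, or of PH80_G+H replicate 1. Without PH70 replicate 2, Cyp2e1, Cyp2a5, Cyp2c37 and Cyp8b1 also missed the threshold (adjusted p from 0.0579 to 0.0895), as did Cyp2c37 and Cyp8b1 without PH70 replicate 1 (0.0572 and 0.0533) and Cyp2c37 without PH80 replicate 1 or 2 (0.0681 and 0.0666). In PH80_HC against PH80, 3 of the 20 rose, Cyp2e1 (log2 2.13, adjusted p = 0.0155), Cyp2c37 (log2 2.77, adjusted p = 0.021) and Cyp27a1 (log2 1.26, adjusted p = 0.0306), and all 3 missed the threshold without PH80 replicate 1 (adjusted p from 0.0604 to 0.0878). Cyp2c37 also missed it without PH80_HC replicate 2 (adjusted p = 0.0567), and Cyp27a1 without PH70 replicate 2, PH80 replicate 2, any PH80_HC library or PH80_G+H replicate 3 (adjusted p from 0.0513 to 0.0745). With only the 2 groups in the fit, Cyp2e1, Cyp2c37 and Cyp27a1 all missed it (limma, adjusted p = 0.096, 0.0687 and 0.11). Cyp2e1 and Cyp27a1 missed it with the steepest libraries left out (0.0702 and 0.0734), and Cyp27a1 with the same total in every library (0.0761). In PH80_G+H, limma and edgeR called 0 of the 20 (10 at an unadjusted p under 0.05) and DESeq2 called 2.

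Genes of the opposite, periportal side also fell in part. Of 22 periportal genes, 3 fell and 0 rose in PH80 against PH70 (median -0.26): Pigr, the receptor that carries IgA into bile (log2 -1.90, adjusted p = 0.00299), G6pc, which releases glucose (log2 -1.86, adjusted p = 0.00662), and Cyp2f2 (log2 -1.49, adjusted p = 0.0158). At an unadjusted p under 0.05 limma gave 9 of the 22, and edgeR called 3 and DESeq2 5. In PH80_HC against PH80 these counts were 6, 1 and 2. Pigr rose in PH80_HC (log2 1.41, adjusted p = 0.0237), and Cyp2f2 differed there by -0.04 (adjusted p = 0.971). Gls2, the periportal glutaminase that runs the reverse reaction of Glul, differed by -0.70 (adjusted p = 0.125) in PH80 and was not called. Without PH70 replicate 2, G6pc (adjusted p = 0.0513) and Cyp2f2 (0.0906) missed the threshold, and Cyp2f2 also without PH80 replicate 2 (0.0576). The rise of Pigr in PH80_HC was lost without PH80 replicate 1 or 2 or PH80_HC replicate 1 or 3 (adjusted p from 0.0516 to 0.069). It was also lost with only the 2 groups in the fit (limma, adjusted p = 0.11), the same total in every library (0.0552) and the steepest libraries left out (0.0863).

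**Figure D4:**
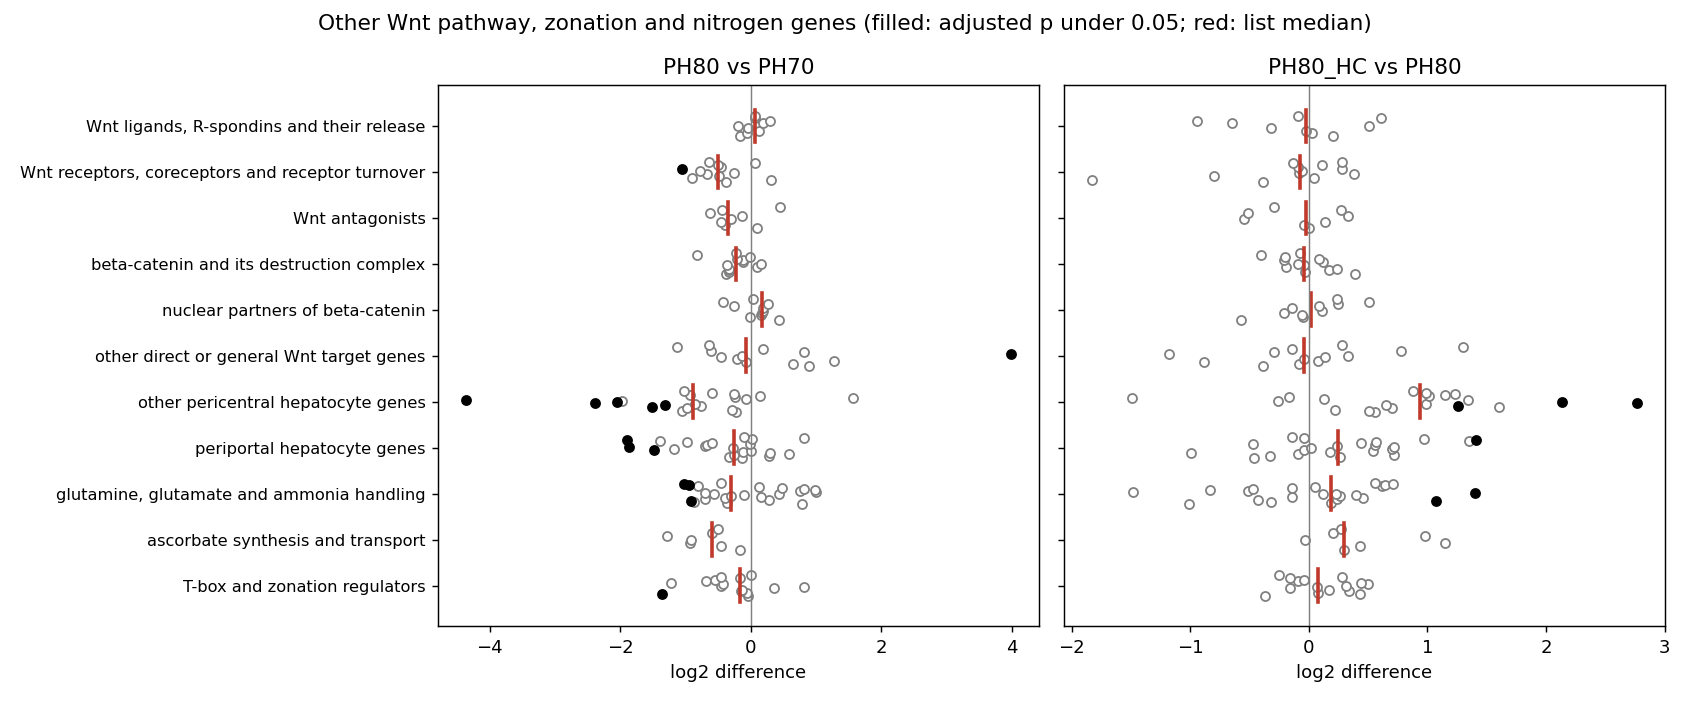
Log2 difference of each tested gene outside the 10 (points) by list (rows) in PH80 against PH70 and PH80_HC against PH80, with filled points for an adjusted p under 0.05 and a red line at the list's median. The pericentral list has a median of -0.89 in the first panel and 0.93 in the second, and the Wnt ligands lie around 0 in both (0.06 and -0.02).

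Among 23 further genes of glutamine, glutamate and ammonia handling, limma gave 12 at an unadjusted p under 0.05 in PH80 against PH70. In that comparison edgeR called 3 and DESeq2 6. After adjustment in limma, 3 of the 23 fell and 0 rose (median -0.31 over the 23). The 3 that fell were the amino acid transporters Slc38a3 (log2 -0.94, adjusted p = 0.0413) and Slc38a4 (log2 -1.02, adjusted p = 0.0338) and the channel Aqp9 (log2 -0.92, adjusted p = 0.0353). Each lost its call in 10 to 12 of 24 alternatives, among them the omission of PH70 replicate 1 or 2, PH80 replicate 1 or 2 or PH80_G+H replicate 1 or 3, and for Slc38a3 and Slc38a4 also of PH70 or PH80 replicate 3 (adjusted p up to 0.167). Prodh, the proline oxidase (log2 1.40, adjusted p = 0.0173), and Aqp9 (log2 1.07, adjusted p = 0.0365) rose in PH80_HC against PH80, and both missed the threshold without PH80 replicate 1 (adjusted p = 0.0549 and 0.119) or PH80_HC replicate 1 (0.0551 and 0.114). Aqp9 also missed it without PH70 replicate 1 or 2, PH80 replicate 2, PH80_HC replicate 2 or PH80_G+H replicate 1 or 3 (adjusted p from 0.0504 to 0.091). Prodh and Aqp9 missed it with only the 2 groups in the fit (limma, adjusted p = 0.0964 and 0.158) and with the steepest libraries left out (0.0702 and 0.0768). Aqp9 missed it without the intensity trend (0.0521), with the same total in every library (0.115) and with the replicate block (0.0722). Of the 23, 9 had an unadjusted p under 0.05 in PH80_HC against PH80, and edgeR called 2 and DESeq2 5. Among 7 genes of ascorbate synthesis and transport beside Gulo, limma and edgeR called 0 in PH80 against PH70 and DESeq2 called 2, with 6 at an unadjusted p under 0.05 and all 7 means lower (median -0.60). Among 15 regulators of zonation beside Tbx3, 1 fell, Cebpa (log2 -1.36, adjusted p = 0.00814, or 0.0523 without PH70 replicate 2), and Hnf4a differed by -0.42 (adjusted p = 0.316). Of the 15, 5 had an unadjusted p under 0.05 in limma, and edgeR called 1 and DESeq2 3. In PH80_G+H against PH80, limma and edgeR called 0 of the 22 periportal genes (4 at an unadjusted p under 0.05, 3 by DESeq2), 0 of the 23 nitrogen genes (6 and 1), 0 of the 7 ascorbate genes (2 and 0) and 0 of the 15 regulators (1 and 0).

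The 10 genes varied together only in part. Over the 12 libraries, 14 of 45 pairs had Pearson r over 0.5 between log2 levels, the median was 0.287, and r ranged from -0.518 (Axin2 with Lect2) to 0.870 (Glul with Slc1a2). Glul and Gulo reached 0.869. For deviations from the group means the median was 0.188, and the pairs Axin2 with Lgr5 (0.799), Glul with Rhbg (0.777) and Glul with Gulo (0.729) were the highest, while Glul with Slc1a2 was at 0.449. The 3 tested genes most like Glul by Pearson r over the 12 libraries were Ces1c (0.950), Herc4 (0.941) and C2cd2 (0.936). For Axin2 they were Wasl (0.954), Gabpa (0.952) and Sash1 (0.949), and for Lgr5 Slc30a1 (0.887), Cab39 (0.866) and Txnrd1 (0.832). For Lect2 they were Bcdin3d (0.938), Gon7 (0.927) and Mob3c (0.925), and for Gulo Alb (0.921), Hsd17b11 (0.905) and Abhd17c (0.887). None of these 15 was a gene of the 10. These libraries share depth and the length axis across genes, so the likeness is a description.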

How the data were processed

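Liver RNA of 12 mouse libraries was compared in 4 groups of 3. Per the labels' protocols, the TruSeq Stranded mRNA kit was used on 100 ng of RNA. Per the submitters' processing notes, DESeq2 was run and the genome was GRCm38 (mm10), while an aligner, a counter and an annotation are not named in the sources used here. The values the authors deposited are a normalised signal: in each library 100% were whole reads divided by 1 size factor, within 0.01. The lowest mean in the table is 1.01.

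The 12570 genes that reached 10 in 3 or more libraries were tested on log2(value + 1) with limma 3.58.1 in R 4.3.3, with group as the factor, all 12 libraries sharing 1 spread estimate and an intensity trend. The 6 group comparisons and a moderated F test were two-sided. edgeR 4.0.16 and DESeq2 1.42.0 ran on recovered reads as alternatives, beside other pseudocounts, filters, scalings, a length and GC correction and the omission of each library. The script was tested on simulated data. Coordinates and exon lengths are from GENCODE M21. All 10 genes are named. Other genes are named by a rule: up to 4 per list with the smallest adjusted p in each of the comparisons PH80 against PH70, PH80_HC against PH80 and PH80_G+H against PH80, 9 genes in every case, and the 3 genes most correlated with each of 5 of the 10 (mean of at least 50, no predicted genes). Not every list gene that this rule allows is named. Apart from the 9 and the cell markers, the list genes named are those called, with Ccnd1 and Tnfrsf19 besides. The genes and lists were chosen with earlier results of these data known, and the omission of the steepest libraries was added after seeing the data. Depth was 9.72 to 44.5 M reads per library, and Lgr5 and Axin2 had the fewest reads of the 10.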

Additional observations from a re-analysis of the deposited data

How the results depend on the processing

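Of 1440 log2 differences of the 10 genes (6 comparisons under 24 alternatives), 1345 kept their direction and their side of the threshold, 57 changed sign, 36 lost a call and 2 gained one. In some alternatives the log2 difference could not change, so its direction was fixed in advance. These were the other filters, limma without the intensity trend, the replicate block and the fit of only the 2 groups compared. The omission of a library outside those 2 groups likewise left it unchanged. The calls of Glul and Slc1a2 kept their direction under all 24, the fixed ones included, and Lgr5 and Axin2 had the lowest depth, with as few as 46 and 49 reads in a library. The cause of the changes was not tested. In PH80 against PH70, 2 of the 10 genes passed in the reported fit, 1 with the same total in every library, only the 2 groups compared in the fit, the replicate number as a block and the length and GC trend removed and 0 with the steepest library of each group left out, and 0 to 2 with each library left out in turn. In PH80_HC against PH80, 2 of the 10 genes passed in the reported fit, 0 with limma without the intensity trend, the same total in every library, only the 2 groups compared in the fit and the steepest library of each group left out and 1 with edgeR and the replicate number as a block, and 0 to 2 with each library left out in turn. In PH80_HC against PH70, 0 of the 10 genes passed in the reported fit, 1 with DESeq2. In the F test, 1 of the 10 genes passed in the reported fit, 0 with limma without the intensity trend, the same total in every library, the replicate number as a block and the steepest library of each group left out, 3 with DESeq2 and 2 with the length and GC trend removed, and 0 to 2 with each library left out in turn.

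Over all genes tested, the number of calls also moved. For PH80 against PH70, 480 became 950 with DESeq2, 237 with the same total in every library, 293 with the replicate number as a block and 303 with the steepest library of each group left out, and 61 to 725 with each library left out in turn. For PH80_HC against PH80, 112 became 503 with DESeq2, 72 with the same total in every library, 2 with only the 2 groups compared in the fit, 65 with the replicate number as a block, 254 with the length and GC trend removed and 64 with the steepest library of each group left out, and 28 to 125 with each library left out in turn. For PH80_G+H against PH80, 15 became 0 with limma without the intensity trend and the same total in every library, 203 with DESeq2, 9 with the replicate number as a block, 37 with the length and GC trend removed and 24 with the steepest library of each group left out, and 0 to 26 with each library left out in turn. For PH80_HC against PH80_G+H, 32 became 306 with DESeq2, 8 with the replicate number as a block and 16 with the steepest library of each group left out, and 2 to 59 with each library left out in turn. For PH80_HC against PH70, 29 became 17 with a minimum value of 50, 8 with limma without the intensity trend, 15 with edgeR, 253 with DESeq2 and 10 with the replicate number as a block, and 1 to 55 with each library left out in turn. For PH80_G+H against PH70, 1 became 3 with a pseudocount of 10, 0 with a minimum value of 50, 66 with DESeq2, 13 with only the 2 groups compared in the fit, 2 with the length and GC trend removed and 9 with the steepest library of each group left out, and 0 to 6 with each library left out in turn. For the F test, 232 became 106 with limma without the intensity trend, 1226 with DESeq2, 139 with the same total in every library, 107 with the replicate number as a block, 369 with the length and GC trend removed and 141 with the steepest library of each group left out, and 27 to 279 with each library left out in turn. Scaling to the same total, which moved the median of all genes to 0.133 (PH80 against PH70), -0.314 (PH80_HC against PH80), -0.212 (PH80_HC against PH80_G+H) and -0.205 (PH80_HC against PH70), changed the share of higher calls from 34.4% to 17.9% and from 48.3% to 23.8% in the last pair of these. Replicate numbers gave no evidence of pairing: deviations from the group means of same-numbered libraries correlated at -0.367 to 0.373 (6 of 18 pairs over 0.1), those of other pairs at -0.527 to 0.428 (14 of 36 over 0.1), and 1 of 12 libraries correlated best with its own number.

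Signs changed for the following differences, of which that of Axin2 in PH80_HC against PH70 was -0.53 in the reported fit. With the same total in every library these values were Lgr5 0.09 in PH80 against PH70, Tbx3 -0.22 in PH80_HC against PH80, Rnf43 -0.04 in PH80_G+H against PH80, Glul -0.04, Slc1a2 -0.08, Oat -0.12 and Gulo -0.01 in PH80_HC against PH70. With the length and GC trend removed these values were Lgr5 0.07 in PH80 against PH70, Rnf43 -0.00 and Lect2 0.21 in PH80_G+H against PH80, Tbx3 0.05 in PH80_HC against PH80_G+H, Oat -0.02 and Lgr5 0.03 in PH80_HC against PH70, Rhbg -0.01 in PH80_G+H against PH70. With the steepest library of each group left out these values were Lgr5 0.20 in PH80 against PH70, Lgr5 0.14 in PH80_HC against PH80, Tbx3 -0.04, Rnf43 -0.12 and Lect2 0.00 in PH80_G+H against PH80, Oat 0.37, Axin2 0.59 and Tbx3 0.09 in PH80_HC against PH80_G+H, Lgr5 0.34 and Axin2 0.07 in PH80_HC against PH70, Oat -0.18 in PH80_G+H against PH70. With edgeR these values were Axin2 0.05 in PH80_HC against PH80_G+H. With DESeq2 these values were Axin2 0.06 in PH80_HC against PH80_G+H. With each library left out in turn, the log2 difference ranged as follows. In PH80 against PH70 it ranged for Lgr5 from -0.26 to 0.09. In PH80_HC against PH80 it ranged for Lgr5 from -0.27 to 0.24, Tbx3 from -0.05 to 0.28 and Rnf43 from -0.31 to 0.06. In PH80_G+H against PH80 it ranged for Rnf43 from -0.11 to 0.26 and Lect2 from -0.14 to 0.07. In PH80_HC against PH80_G+H it ranged for Oat from -0.16 to 0.24, Axin2 from -0.49 to 0.37 and Tbx3 from -0.20 to 0.13. In PH80_HC against PH70 it ranged for Glul from -0.02 to 0.29, Slc1a2 from -0.05 to 0.25, Oat from -0.02 to 0.24 and Lgr5 from -0.32 to 0.22. In PH80_G+H against PH70 it ranged for Oat from -0.15 to 0.26, Rhbg from -0.15 to 0.28 and Gulo from -0.18 to 0.12.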
